A study of Mus musculus with 4 samples.

Results

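Interferon regulatory factors (IRFs) are transcription factors that bind DNA motifs built on GAAA repeats through a shared N-terminal domain. The genes of 4 of them that act in lymphocytes, Irf1, Irf2, Irf4 and Irf8, were examined in ATAC-seq peak lists of CD4 T cells with and without TOX. ATAC-seq marks open chromatin by the places where a transposase can cut. Peaks of the 4 libraries that overlapped by at least 1 bp were merged into regions, and a region was given to the protein-coding gene whose interval (RefSeq, GRCm38) lay nearest to its midpoint, within 100 kb. By this rule the 4 genes held 89 of 97394 regions (0.0914%), with 13 at Irf1, 37 at Irf2, 14 at Irf4 and 25 at Irf8. Nearness does not show that a region acts on the gene.

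IRF1 is an activator that interferon gamma induces, and it is needed for full Th1 differentiation. IRF2 binds the same motif and mostly counters IRF1. IRF4 is induced by T cell receptor signalling in proportion to its strength and binds with BATF and JUN proteins at composite sites, and it is also a central factor of B cells and plasma cells. IRF8 is best known from dendritic cells, monocytes and B cells, where it pairs with the ETS factors PU.1 and SPIB, and activated T cells express it as well.

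The KO libraries came from naive SMARTA CD4 T cells lacking TOX, an HMG-box nuclear protein, that had been transferred into cytoxan-treated mice bearing B16-GP61 melanoma. They were sorted from the draining lymph node on day 11 as CD4+ Ly5.1+ Ly5.2- cells with low PD1, LAG3 and CD39. The WT libraries came from TOX-sufficient SMARTA cells of the same design, sorted as CD4+ Ly5.1+ Ly5.2+ cells with high levels of these proteins. Both groups carry a transgenic T cell receptor against the GP61 peptide. Genotype, congenic marker and sort gate differ together and cannot be told apart. Each genotype had 2 libraries, numbered KO-1 and KO-2, against WT-1 and WT-2. The sources used here do not give the age of the mice, the deleted part of Tox, or whether the libraries came from separate animals. An exact two-sided permutation test of 2 against 2 libraries cannot give a p below 0.33, so differences are described against the spread within a genotype and against all regions, without a test.

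The KO lists held 43078 and 61773 peaks, against 56852 and 61489 in the WT lists, and read depth is unknown. Of 57 regions at Tox itself, 32 and 46 had a peak in KO libraries, against 30 and 30 in WT libraries. This does not check the labels, since the deleted part is not known. All 12 T cell marker genes, among them Cd3e, Cd4 and Lck, had a peak in every library. Regions of 12 B cell marker genes with a peak numbered 11 and 19 in KO libraries, against 95 and 103 in WT libraries, of 125. Ms4a1 and Fcer2a had no peak in either KO library, and all 12 had one in both WT libraries. For 12 myeloid and dendritic cell marker genes the numbers were 27 and 41 in KO libraries, against 60 and 66 in WT libraries, of 86. Adgre1 and Csf1r had no peak in either KO library, while Lyz2 and Xcr1 had none in any library. Other genes of this list differed little. Itgam had a peak at 5 and 6 of 11 regions in KO libraries, against 4 and 7 in WT libraries. Cebpa had 3 and 3, against 3 and 5, of 5, Cd14 1 and 2, against 1 and 1, of 2, and Clec9a its 1 region in every library. Ly86 had 5 and 11 of 24, against 16 and 19. The 7 melanocyte markers are a check for tumor cells. Of their 21 regions, 8 and 16 had a peak in KO libraries, against 8 and 8 in WT libraries. Tyrp1 had peaks in KO libraries alone, at 1 and 3 of 4 regions. Tyr had 2 and 3 of 6 in KO libraries, against 0 and 1 in WT libraries. Mitf had 2 and 5, against 4 and 3, of 6, and Mlana 1 and 3, against 2 and 2, of 3. Pmel had a peak at its 2 regions in every library, and Dct and Sox10 had none in any library. B cells, dendritic cells and monocytes use Irf4 and Irf8 too, and the part of such cells in the differences below was not tested.

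Each of the 4 genes had a region with a peak in all 4 libraries across its first listed transcription start, so the promoter sequences beneath these peaks are shown. They are RefSeq sequences (GRCm38.p6), 5′ to 3′ in the direction of transcription, and run from 250 bases before to 50 after the start. Capitals mark the matches to 11 motifs searched on both strands, and positions below are those of a match's first base relative to the start.

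Irf1 promoter (chr11:53769764-53770063, plus strand): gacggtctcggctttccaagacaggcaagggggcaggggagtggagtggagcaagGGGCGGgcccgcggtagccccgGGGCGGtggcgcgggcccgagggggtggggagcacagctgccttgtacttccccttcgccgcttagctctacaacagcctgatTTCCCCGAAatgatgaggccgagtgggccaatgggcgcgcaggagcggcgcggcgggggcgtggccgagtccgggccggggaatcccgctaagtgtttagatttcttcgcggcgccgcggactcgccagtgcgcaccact
Irf2 promoter (chr8:46739495-46739794, plus strand): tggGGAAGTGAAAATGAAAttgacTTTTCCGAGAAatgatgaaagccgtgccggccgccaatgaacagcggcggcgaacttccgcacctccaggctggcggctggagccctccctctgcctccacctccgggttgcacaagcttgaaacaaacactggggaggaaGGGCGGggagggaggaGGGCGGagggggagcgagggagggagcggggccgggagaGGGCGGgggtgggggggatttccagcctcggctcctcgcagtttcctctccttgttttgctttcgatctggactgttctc
Irf4 promoter (chr13:30748983-30749282, plus strand): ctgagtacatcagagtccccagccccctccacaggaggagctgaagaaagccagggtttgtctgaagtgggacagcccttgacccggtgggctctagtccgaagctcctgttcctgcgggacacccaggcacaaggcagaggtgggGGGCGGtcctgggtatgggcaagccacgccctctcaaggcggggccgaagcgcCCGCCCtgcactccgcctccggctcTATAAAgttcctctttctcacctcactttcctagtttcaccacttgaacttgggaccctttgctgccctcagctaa
Irf8 promoter (chr8:120736108-120736407, plus strand): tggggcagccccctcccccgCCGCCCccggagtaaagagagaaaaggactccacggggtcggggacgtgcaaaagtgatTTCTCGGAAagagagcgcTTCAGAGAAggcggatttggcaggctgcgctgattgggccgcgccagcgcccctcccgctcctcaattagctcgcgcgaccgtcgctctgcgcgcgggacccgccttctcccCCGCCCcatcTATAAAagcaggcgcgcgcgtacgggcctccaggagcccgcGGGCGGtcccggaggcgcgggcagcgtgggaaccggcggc

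The capitals hold GAS, the STAT motif TTCNNNGAA, at Irf1 (TTCCCCGAA, −90), at Irf2 (TTCCGAGAA, −224) and at Irf8 (TTCTCGGAA, −171, and TTCAGAGAA, −153). Of 32851 promoters of this length in the RefSeq table, 8.30% held that motif. The Irf2 promoter also held the interferon response core GAAANNGAAA, present in 3.44% of promoters, and the ETS-IRF composite GGAANNGAAA, present in 2.72%. These lay at −241 and −247 and overlapped each other, and the NFAT letters GGAAAA (23.4% of promoters) overlapped its GAS match on the other strand. TATAAA stood at −26 at Irf4 and at −31 at Irf8 (13.6% of promoters), and GGGCGG, the GC box, stood in all 4 (35.7%). None of the 4 windows held the letters searched for AP-1 (TGANTCA, 7.81% of promoters), CRE (TGACGTCA, 1.79%) or kappaB (GGGANNTTCC, 1.47%). The letters of the AP-1-IRF composites, GAAATGANTCA (0.125%) and TTTCNNNNTGANTCA (0.119%), were absent too. Only these letters were searched, so sites of the same factors with other letters, kappaB among them, can be present. A match of letters does not show binding. The Irf8 promoter held 38 CpG dinucleotides, with fewer in 95.0% of promoters, and Irf1 held 32 (90.5%). Irf2 held 19 (71.9%) and Irf4 11 (58.6%), the fewest of the 4 windows shown. Windows at the second listed starts, not shown, held 43 (97.4%) at Irf1 and 8 (51.4%) at Irf8.

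Openness at these starts was ranked by the authors' fold enrichment of a peak over background, given as its percentile among all peaks of the same library. The Irf1 start region, chr11:53769340-53770840, ranked at 85.9 and 89.2 in KO libraries, against 88.2 and 90.4 in WT libraries, so the genotypes overlapped. Its highest summits lay at −93 and −124 bp from the start in KO libraries, against −124 and −79 bp in WT libraries, and the region also covered the second listed start of Irf1. The Irf8 start region, chr8:120735736-120737123, was the highest of the 89 regions, with percentiles of 94.5 and 98.5 in KO libraries, against 95.7 and 94.2 in WT libraries. These overlapped as well, but ranked among the regions shared by every library alone the KO libraries stood higher (91.2 and 96.4, against 90.9 and 86.8). The main Irf8 peak was 596 and 647 bp wide in KO libraries, against 1237 and 1248 bp in WT libraries. Each KO library had a second peak in the region, 328 bp wide in KO-2 and 286 bp in KO-1, where each WT library had 1 peak, so the widths are not of like peaks. No region reached the second listed start of Irf8, 1516 bp from the nearest one.

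At the other pair of genes the WT libraries ranked above the KO libraries. The Irf2 start region, chr8:46739171-46741509, stood at percentiles 80.5 and 83.6 in KO libraries, against 88.6 and 87.4 in WT libraries. The Irf4 start region, chr13:30748185-30749763, was the lowest of the 4, at 57.8 and 64.5 in KO libraries, against 77.7 and 73.4 in WT libraries. In KO-2 the highest summit lay at −727 bp, in a peak that ended before the Irf4 start, against −98 bp in KO-1, and −32 and −49 bp in WT libraries. The KO-2 peak that did cover the start, with its summit at −69 bp, ranked at 54.2, so the WT libraries stood higher by that peak as well. Both WT percentiles exceeded both KO percentiles at 32.5% of the 8645 regions that had a peak in every library and covered a listed start. Medians over those regions were 86.3 and 89.3 in KO libraries, against 89.6 and 90.5 in WT libraries, so the Irf4 start was below the typical start in each library.

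Taking all regions together, fewer regions of the 4 genes had a peak in KO than in WT libraries. Of the 89 regions, 35 and 42 had a peak in KO libraries, against 60 and 66 in WT libraries, which is 38.5 ± 4.95 in KO and 63.0 ± 4.24 in WT libraries (SD, n = 2 each). The genotypes did not overlap, and the difference of the means was larger than the SD of either group. Over all regions the shares were 40.9% and 60.0% in KO libraries, against 54.4% and 60.2% in WT libraries, and for the 4 genes 39.3% and 47.2%, against 67.4% and 74.2%. Both KO libraries had a peak at 28 of the 89 (31.7% of all regions), and both WT libraries at 50 (42.9% of all regions). In bulk libraries fewer cells with an open region and less opening per cell cannot be told apart.

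A peak in both KO libraries and neither WT library (KO-only) was found at 4 regions, 4.49% of the 89, where 1.78% of all regions were KO-only. The reverse (WT-only) was found at 20 regions, 22.5%, where 8.80% of all regions were WT-only. By gene, WT-only regions made up 23.1% at Irf1, 21.6% at Irf2, 21.4% at Irf4 and 24.0% at Irf8, so the 4 genes lay close together. The WT-only share stayed above that of all regions under every alternative tried, while the KO-only share did not. With the 20000 strongest peaks of each list the WT-only share was 12%, near the 8.96% of all regions. The KO-only share was 10.6% of the member regions, against 22.3% of all regions, without KO-1, and 9.41%, against 11.8%, without KO-2. In these settings a KO-only region needs 1 KO library. Among peaks whose −log10 q reached 5 the KO-only share was 1.67%, against 2.19%. Another 22 regions (24.7%, against 27.6% of all regions) had a peak in every library, 29 (32.6%, against 48.4%) in 1 library alone, and 14 in other combinations. Of the 29, the KO libraries held 4 and 5, against 8 and 12 in the WT libraries. The split of all 47171 such regions between the libraries is not given here.

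**Figure D1:**
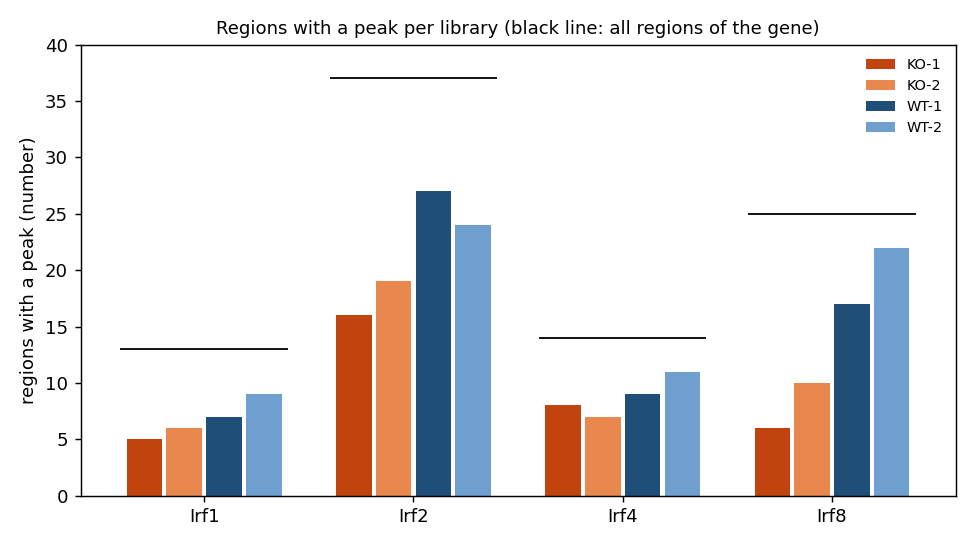
Number of regions with a peak at each gene, with 1 bar per library, KO left of WT, and a black line at the number of regions of the gene. At Irf8 the KO libraries had 6 and 10, against 17 and 22 of 25 in the WT libraries, and at Irf1 and Irf4 the genotypes lay closer.

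In rank and width the WT-only regions of the 4 genes lay close to WT-only regions elsewhere. Their places differed, as did those of the other classes of regions at these genes. Their median percentiles in the WT libraries were 40.9 and 42.6, against 42.5 and 46.2 over all 8567 WT-only regions, and their median width 363.5 bp, against 373 bp. None lay within 1 kb of a gene end, 5 (25.0%) lay inside a gene and 15 (75.0%) outside, against 7.37%, 51.0% and 34.9% of all WT-only regions. The remaining 6.76% of those had no gene within 100 kb, which a region of the 4 genes always has. Outside the gene also lay 75.0% of KO-only, 50.0% of shared and 65.5% of 1-library regions of the 4 genes. Over all regions of these classes it was 29.1%, 24.2% and 25.5%. With both libraries required to reach a deposited −log10 q of 10, 0 KO-only and 4 WT-only regions were left, 0% and 4.49% of the 89, against 0.0606% and 2.41% of all regions.

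Irf1, the interferon-induced activator, had the fewest regions, and its 3 regions open in every library differed little between genotypes. Regions with a peak numbered 5 and 6 in KO libraries, against 7 and 9 in WT libraries, of 13. Besides the start, the shared regions lay 6.4 kb upstream (percentiles 78.5 and 86.5 in KO libraries, against 85.8 and 88.2 in WT libraries) and 25.1 kb downstream of the start (84.7 and 89.2, against 86.1 and 87.3). At none of the 3 did the genotypes separate on this scale. Of all 26867 regions with a peak in every library, 16.5% had both KO percentiles above both WT percentiles and 25.9% the reverse. Ranked among shared regions alone, the first stood higher in both WT libraries (65.6 and 69.1 in KO, against 70.8 and 73.6 in WT) and the second in both KO libraries (75.5 and 75.2, against 71.3 and 71.7).

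Irf1 had 1 KO-only region, 16.8 kb downstream of the start at chr11:53786654-53787036, with percentiles of 59.9 and 48.3. It had 3 WT-only regions. The strongest, chr11:53803022-53803413, lay 33.2 kb downstream with percentiles of 67.0 and 68.7, and a pair 21.7 and 21.3 kb upstream, chr11:53748116-53748452 and chr11:53748579-53748925, stood at 58.4 and 50.7, and 42.5 and 43.6. All 4 lay outside the gene, and inside it no region lay away from the ends.

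Irf2, whose product counters IRF1, spans 107714 bp and held the most regions. Peaks stood in 16 and 19 regions in KO libraries, against 27 and 24 in WT libraries, of 37. It had 2 KO-only regions. One lay 43.3 kb upstream, chr8:46696302-46696608 (percentiles 40.2 and 49.3), and the other 8.1 kb inside the gene, chr8:46747692-46747910 (14.7 and 33.2).

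Irf2 had 8 WT-only regions, and 4 of them were gathered 25.7 to 41.7 kb upstream of the start. The strongest was chr8:46712721-46713802, 26.5 kb upstream, with percentiles of 71.4 and 74.9, and chr8:46713965-46714161 beside it had 30.0 and 31.3. Farther out, chr8:46697785-46698383 had 75.9 and 56.6, and chr8:46700687-46700937 had 41.2 and 8.92. The sole WT-only region inside the gene, chr8:46789489-46789868, lay 49.9 kb from the start with 63.1 and 69.3. The last 3 lay beyond the gene's end, at chr8:46872823-46873387 (12.8 and 42.6), chr8:46886223-46886748 (44.0 and 42.6) and chr8:46887399-46887693 (5.03 and 17.2).

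The 9 regions of Irf2 shared by every library went both ways. The one at 59.6 kb inside the gene, chr8:46799207-46799574, stood at 26.0 and 13.8 in KO libraries, against 69.2 and 49.9 in WT libraries. The one at 119.9 kb, past the gene's end at chr8:46859199-46860166, stood at 84.9 and 83.8 in KO libraries, against 75.7 and 64.9 in WT libraries. The intragenic region at 16.4 kb, chr8:46755898-46756453, the third strongest of the gene, overlapped between genotypes (67.3 and 82.5, against 77.6 and 76.5). In all, both KO libraries were higher at 2 of the 9, both WT libraries at 3, and at 4 the genotypes overlapped. The shares higher in KO and in WT were 22.2% and 33.3%, against 16.5% and 25.9% of all shared regions.

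Irf4, the factor induced by antigen receptor signals, held the widest differences in rank among the 22 shared regions. Peaks stood in 8 and 7 regions in KO libraries, against 9 and 11 in WT libraries, of 14. Its 5 shared regions all separated by genotype, 2 higher in both KO libraries and 3 higher in both WT libraries. Of all shared regions, 16.5% were higher in both KO libraries and 25.9% in both WT libraries. With 5 regions the shares at Irf4 are coarse.

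Inside Irf4, neighbouring regions ranked in opposite order. The region 11.3 kb from the start, chr13:30760211-30760819, stood at percentiles 77.8 and 81.5 in KO libraries, against 55.3 and 57.1 in WT libraries. Its summits lay within 12 bp of each other in the 4 libraries. The next region, chr13:30760857-30761878, stood at 1.97 and 4.02 in KO libraries, against 76.8 and 78.0 in WT libraries. The authors' fold enrichment there was 2.37 and 2.79 in KO libraries, against 7.35 and 7.37 in WT libraries. A gap between genotypes as wide in this direction, 72.8 points, was found at 2 of the 26867 shared regions.

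The shared status of that second region rests on the merging, because the peaks in it do not line up. Its summits spread over 617 bp, the KO-2 peak did not overlap the WT-1 peak, and 3 of the 4 pairs of a KO with a WT library overlapped directly. In the other 21 shared regions of the 4 genes all 4 pairs overlapped. It was singled out after its values were seen, as were the Irf4 regions 1.5 and 17.8 kb from the start, the Irf8 region at 15.8 kb and the Irf2 region at 59.6 kb.

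Just upstream of the Irf4 promoter the order turned again. The region 1.5 kb before the start, chr13:30747422-30748131, stood at 47.1 and 47.2 in KO libraries, against 5.28 and 5.42 in WT libraries. A gap as wide in that direction, 41.7 points, was found at 38 shared regions (0.141%). The region across the gene's far end, chr13:30766670-30767487, stood at 6.02 and 56.1 in KO libraries, against 71.6 and 58.8 in WT libraries, so KO-1 and KO-2 differed there by 50.1 points. Between the genotypes the gap was 2.65 points, WT above KO, and 14.7% of shared regions had one as wide in that direction.

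Irf4 had 1 KO-only region, 6.7 kb upstream at chr13:30742309-30742820, with percentiles of 19.9 and 23.2. Of its 3 WT-only regions, chr13:30736662-30737526, 12.1 kb upstream, was the strongest (54.8 and 57.7). The others were chr13:30730120-30730365, 19.0 kb upstream (26.8 and 44.8), and chr13:30764419-30764615 inside the gene (0.725 and 20.3). All 4 ranked below the region across the Irf4 start in the libraries that had them.

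Irf8 had the largest difference in number. Peaks stood in 6 and 10 regions in KO libraries, against 17 and 22 in WT libraries, of 25, which is 8.0 ± 2.83 in KO and 19.5 ± 3.54 in WT libraries (SD, n = 2 each). It had 0 KO-only and 6 WT-only regions (0% and 24.0%, against 1.78% and 8.80% of all regions). Regions seen in 1 library numbered 9 (36.0%, against 48.4% of all regions), 0 and 1 in KO libraries, against 2 and 6 in WT libraries. Most were thus in WT-2 alone, and the split of all such regions between the libraries is not given here. The counts of regions with a peak in KO and WT libraries did not overlap at Irf8 or at the other 3 genes. At what share of all genes this holds was not determined, so it does not set the 4 genes apart. The counts did not overlap either in the lists of partner, upstream, target, B cell and myeloid genes given below. In the lists of other IRF, T cell and melanocyte genes they overlapped. Over all regions they overlapped as well (40.9% and 60.0% in KO libraries, against 54.4% and 60.2% in WT libraries). The part of B cells or myeloid cells in these differences was not tested.

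The WT-only regions of Irf8 fell in 3 places. Inside the gene lay chr8:120744568-120744976, chr8:120746043-120746690 and chr8:120747270-120747616, at 8.4, 10.0 and 11.1 kb from the start, with percentiles of 2.78 and 12.5, 46.8 and 41.8, and 4.02 and 20.7. Just past the gene's end lay chr8:120758021-120758296 (30.1 and 32.3) and chr8:120760120-120760967 (40.6 and 58.8). Far downstream, 61.3 kb from the start, lay chr8:120797469-120797798 (24.5 and 13.5). None of the 6 ranked above 58.8 in its list.

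Of the 5 Irf8 regions shared by every library, 4 had the higher mean percentile in KO libraries and 1 in WT libraries. Over all 26867 shared regions, 10745 were higher in KO and 16122 in WT libraries. The intragenic region 15.8 kb from the start, chr8:120751835-120752496, stood at 80.0 and 81.1 in KO libraries, against 46.8 and 41.7 in WT libraries. Gaps this wide in that direction, 33.3 points, were found at 131 shared regions (0.488%). The region 10.9 kb upstream, chr8:120724796-120726124, had the reverse order, with 34.0 and 71.3 in KO libraries, against 92.0 and 89.9 in WT libraries.

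The authors' −log10 q at that upstream region was 3.31 and 20.2 in KO libraries, against 117 and 126 in WT libraries. At 20.9 kb upstream, chr8:120715035-120715878, the percentiles were 77.7 and 77.5 in KO libraries, against 71.6 and 77.2 in WT libraries, a separation of 0.306 points that ended when ranks were taken among shared regions alone. At 60.1 kb downstream they overlapped (69.8 and 75.9, against 65.4 and 71.9), and ranked among shared regions alone the KO libraries stood higher. Summits of these shared Irf8 regions lay within 26 to 106 bp of each other.

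**Figure D2:**
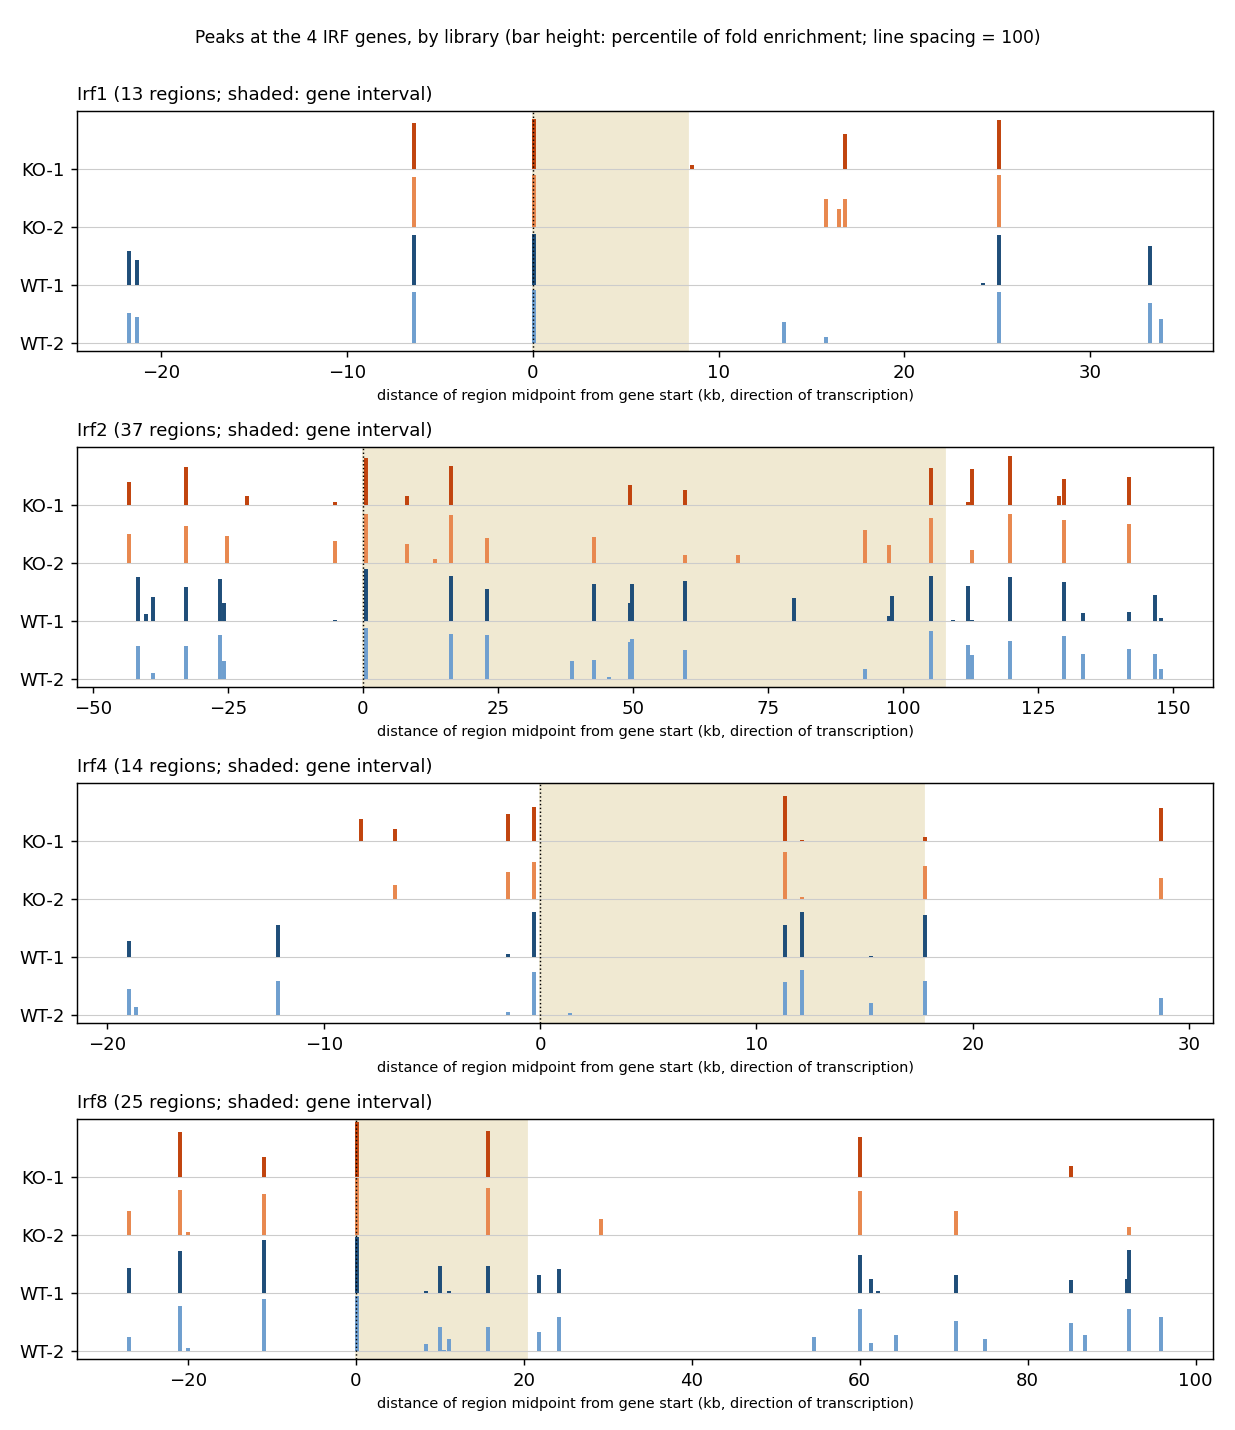
Peaks along each gene, with the distance of a region's midpoint from the gene start in kb on the horizontal axis and 1 row per library. Bar height is the percentile of fold enrichment within the library, with the gene interval shaded. The Irf4 panel shows the pair of regions at 11.3 and 12.1 kb, and the Irf8 panel the WT-only bars at 8.4 to 11.1 kb.

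Over the 22 shared regions of the 4 genes neither genotype ranked higher as a whole. The median of KO minus WT percentiles was −0.781 points, against −1.35 over all shared regions, with 11 regions higher on average in KO and 11 in WT libraries. Both KO libraries stood above both WT libraries at 6 regions (27.3%, against 16.5% of all shared regions), and the reverse held at 7 (31.8%, against 25.9%). With a gap of at least 20 points, a limit set after the values were seen, there were 3 (13.6%) and 2 (9.09%) such regions, where 1.81% of all shared regions passed in each direction. The 5 were 3 at Irf4, 1 at Irf8 and 1 at Irf2. With ranks among shared regions alone, 8 and 8 of the 22 separated, against 22.0% and 24.0% of all.

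Libraries of a genotype differed at these regions by a median of 5.27 points in KO and 3.10 points in WT, against 7.7 and 4.0 over all shared regions. The highest differences were 50.1 points between the KO libraries and 40.1 points between the WT libraries. At Irf1 the KO minus WT median was −1.81, at Irf2 −2.16, at Irf4 −14.4 and at Irf8 3.20, from 3, 9, 5 and 5 regions.

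**Figure D3:**
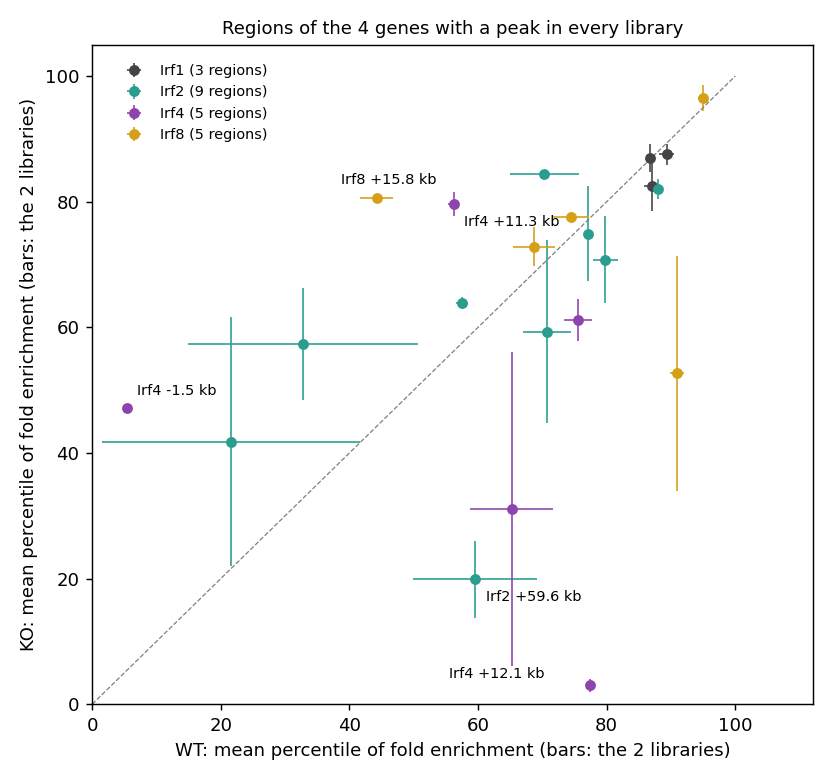
Mean percentile of fold enrichment in the KO libraries (vertical axis) against that in the WT libraries (horizontal axis) at the 22 regions with a peak in every library, coloured by gene. Bars span the 2 libraries, and the dashed line marks equal rank. Irf4 regions stand far off the line on both sides, while the 3 Irf1 regions lie near it.

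Other genes of the pathway were taken from lists of known roles. The other IRF genes with the IRF2-binding proteins had 1 KO-only and 5 WT-only regions of 72 (1.39% and 6.94%). Over all regions the shares were 1.78% and 8.80%, close to these. Irf2bp2 had 1 and 2 of 31, Irf2bpl 0 and 1 of 20 and Irf5 0 and 1 of 6, while Irf3, Irf7 and Irf9, named after their values were seen, had neither kind. The DNA-binding partners of IRF4 and IRF8 had 1 and 8 of 50 (2.00% and 16%). Tcf3, encoding an E protein, and Spib, an ETS factor of B and plasmacytoid dendritic cells, had 0 and 2 each, and Jun 0 and 1. Batf, Batf3 and Junb, which pair with IRF4 or IRF8 and were named after their values were seen, had 1 and 1 of 14, 0 of 7 and 0 of 3.

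Upstream of the IRFs, the interferon receptors with their kinases, STATs and NF-kappaB factors had 6 KO-only and 18 WT-only regions of 166. These were 3.61% and 10.8%, against 1.78% and 8.80% of all regions, so the WT-only share was near that of all regions. Nfkb1 had 0 and 4 of 36, Ifnar2, a type I interferon receptor chain, 0 and 3 of 12, and Rel, which acts on Irf4, 0 and 3 of 8. Among 10 target genes the counts were 2 and 17 of 83 (2.41% and 20.5%), and 7 of the 17 stood at Ciita, the MHC class II transactivator, with 0 and 7 of 17. Bcl6 had 0 and 2 of 15, and Prdm1, which IRF4 induces, had 2 and 4 of 24. B2m and Il12rb1, named after their values were seen, had a peak in every library at each of their regions.

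Set beside cell type markers, the 4 IRF genes lay between T and B cell genes. WT-only regions were 4.85% of the T cell list and 48.8% of the B cell list, with 30.2% at myeloid and dendritic cell genes and 0% at melanocyte genes. KO-only regions were 7.88% of the T cell list and 0.8% of the B cell list. They were 2.33% of the myeloid list, 0% of the melanocyte list and 1.78% of all regions. The T cell list had a peak in 91 and 126 regions in KO libraries, against 86 and 97 in WT libraries, of 165.

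**Figure D4:**
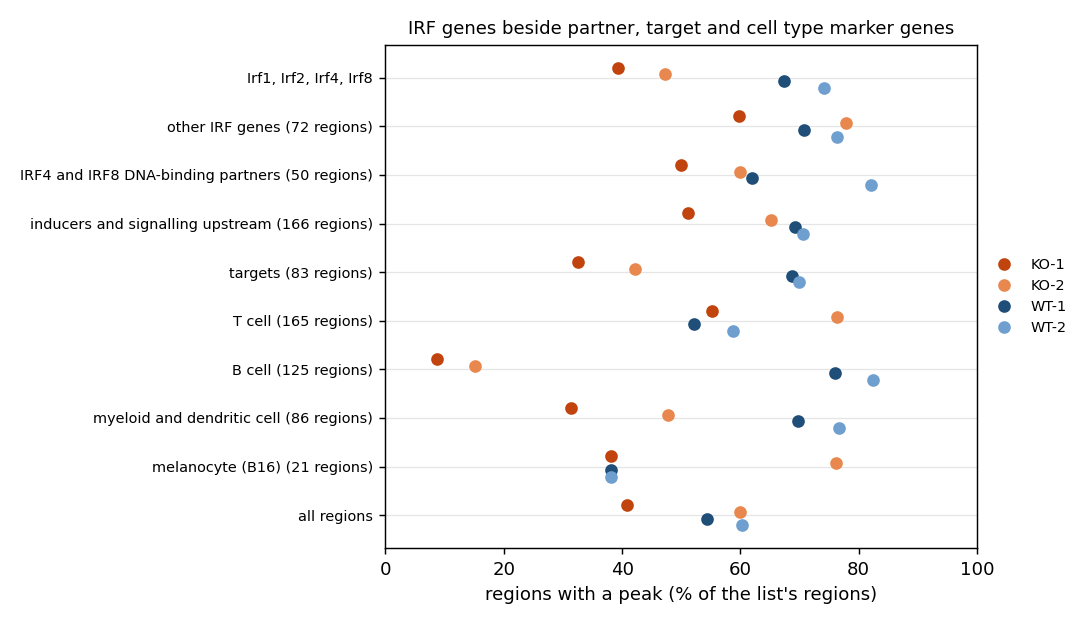
Share of regions with a peak in each library (horizontal axis, percent of the list's regions) for the 4 IRF genes, pathway lists, cell type markers and all regions. The IRF genes stand at 39.3% and 47.2% in KO libraries, against 67.4% and 74.2% in WT libraries, and the B cell list at 8.80% and 15.2%, against 76.0% and 82.4%.

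Genes were also ranked by likeness to each IRF gene in the share of their regions with a peak in each of the 4 libraries, as a distance in percentage points over genes with at least 15 regions. Nearest to Irf8 were Ttll5 (7.24 points), Cmah (7.98) and Epb41l2 (8.0), and nearest to Irf4 were Itpr1 (8.11), Arid1a (8.39) and Myo1d (9.22). Nearest to Irf2 were Akap13 (3.31), Phlpp1 (5.92) and Katnal1 (5.95), and nearest to Irf1 were Chd1 (6.61), Slc15a1 (6.86) and Taok3 (6.98). Within 10 points stood 4 genes for Irf8 and 4 for Irf4, against 20 for Irf2 and 13 for Irf1, of 1048 or 1049 genes compared. These distances rest on 4 libraries and move with the depth and list length of each.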

How the data were processed

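ATAC-seq peaks of 2 KO and 2 WT libraries were analysed, each with its own deposited list of 10 columns without a header. MACS2, BWA, Picard, deepTools and SAMtools, with the builds GRCm38 and mm10, are named per the submitters' processing notes. The sources used here give no versions, settings, read shifting or filters. The deposited fold enrichment (column 7) is a ratio of a peak to its library's background, and the deposited −log10 p and −log10 q rank it against that background. The deposited score was not used. All are the authors' values, compared by rank within a library. Peak numbers missing from a list came to 1603 and 1681 in KO libraries, against 1758 and 1900 in WT libraries, so an absent peak can be a removed one. With read numbers unknown, no value has a counting interval.

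Merging, gene assignment and percentiles (mid-ranks) were computed in Python 3.11 with pandas 2.3.3 and tested on simulated data. Intervals came from the RefSeq table of GRCm38.p6 without exons, and starts and strand from its promoter table. No member region tied between genes. The 4 genes and all lists were chosen with earlier results of these data known. Named by rule were all 4 genes, their KO-only, WT-only and start regions, the 3 highest regions of each, 3 genes a list by KO-only minus WT-only regions, and 3 genes by likeness. Further regions and genes were named as the text says, and marker genes by their lists. Positions are 1-based. Alternatives changed the peak threshold, list length, overlap, assignment, ranking and libraries.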

Additional observations from a re-analysis of the deposited data

How the results depend on the processing

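The 4 genes had 4 KO-only and 20 WT-only regions of 89. Under a deposited −log10 q of at least 5 there were 1 KO-only and 17 WT-only regions of 60 (1.67% and 28.3%, against 2.19% and 13.5% of all regions). At a −log10 q of at least 10 there were 2 and 8 of 36 (5.56% and 22.2%, against 1.85% and 13.2% of all regions). With the 20000 strongest peaks of each list there were 2 and 3 of 25 (8% and 12%, against 6.77% and 8.96% of all regions). Lists shortened to the length of the shortest gave 5 and 13 of 70 (7.14% and 18.6%, against 3.92% and 9.61% of all regions). The gene with 10 kb around it gave 3 and 7 of 47 (6.38% and 14.9%, against 1.78% and 8.8% of all regions). In that setting all regions were still counted at any distance from a gene, so the sets are unlike. Requiring a −log10 q of at least 10 in both libraries of KO-only and WT-only regions left 0 and 4 (0% and 4.49%, against 0.0606% and 2.41% of all regions). Leaving out 1 library at a time gave 81 to 85 regions, 5 to 9 KO-only and 23 to 35 WT-only ones, where a library alone then stands for its genotype. KO-only shares were 5.95% to 10.6%, against 2.84% to 22.3% of all regions, and WT-only shares 27.1% to 41.7%, against 10.4% to 24.2%. The highest WT-only number, 35, came without WT-1, where 41.7% of member regions were WT-only, against 24.2% of all regions. WT-only regions outnumbered KO-only ones in 13 of 14 settings at Irf8 and Irf2, 12 at Irf1 and 9 at Irf4, and over all regions in 13, the exception being without KO-1.

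The median KO minus WT percentile of shared regions, −0.781, ranged from −5.73 to 5.69 over 17 alternatives, above 0 in 8 and below 0 in 9. The highest, 5.69, came with the 20000 strongest peaks. One of the 17, regions whose summits lie within 150 bp, was chosen after seeing the data and gave 1.54. No paired analysis was possible because the results come from no test, and nothing in the labels ties equal library numbers to a shared animal or day. Without read numbers, a missing peak cannot be told from one below the threshold.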

Other observations

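Regions within 100 kb of Irf1, Irf4 and Irf8 that lay nearer to another gene were counted as well. Around Irf8, 7 such regions, 6 of them nearest to Cox4i1, a cytochrome c oxidase subunit gene, had a peak at 3 and 6 in KO libraries, against 5 and 4 in WT libraries, with 0 KO-only and 0 WT-only regions. Around Irf4 there were 26, with 9 and 18 in KO libraries, against 17 and 18 in WT libraries. Of their 4 WT-only regions, 3 were nearest to Dusp22, a phosphatase gene, and 1 to Exoc2. Around Irf1 there were 17, of which 3 were nearest to Il5, a type 2 cytokine gene, with 9 and 10 in KO libraries, against 13 and 11 in WT libraries, and 1 KO-only and 0 WT-only regions. These counts were not tested.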
